A study of Mus musculus with 4 samples.

Results

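Arg1 and Spp1 macrophages are the macrophages of these MC38 tumors in which the transcripts of Arg1 and Spp1 took the largest share of all transcripts counted. Macrophages were taken by a rule on the counts of each cell, which asked for 500 detected genes or more, no more than 10% of counts from mitochondrial genes, a Csf1r count of 1 or more, 0.2% or more of the counts on C1qa, C1qb and C1qc, no more than 2 counts of Cd3d, Cd3e and Cd3g and no more than 1 of Ncr1 and Klrb1c. Members were selected on the sum of their Arg1 and Spp1 counts over all counts of the cell, as the top 10% of the macrophages pooled over the 4 libraries. This chose 1414 of 14139 macrophages, and of 28290 cells deposited. Because Arg1 and Spp1 selected the members, their levels in members are a description, and every gene below was read in the same cells.

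MC38, a transplanted mouse colon carcinoma, was grown under the skin of humanized CTLA-4 mice (B-hCTLA-4, host strain C57BL/6), and antibodies were given into the peritoneum once tumors had reached about 100 mm3. Viable CD45+ cells, that is leukocytes, were sorted on day 8 of treatment after 3 doses, fixed, and probed by Chromium Flex, which counts unique molecular identifiers (UMIs) of probes for 19059 genes in each cell. All groups share the humanized CTLA-4 allele and the tumor line. The article states an age for its C57BL/6J and BALB/c mice, but none separately for the humanized CTLA-4 mice. The isotype control group received human IgG1 at 10 mg/kg. The combination group received ipilimumab, a human IgG1 against human CTLA-4 (αCTLA-4), at 10 mg/kg together with AT130-2, a mouse IgG1 against mouse FcγRII carrying the Fc substitution N297A, at 20 mg/kg. The other two libraries each received 1 of these antibodies, and in both the title and the treatment field disagree on which. The one with a title naming anti-human CTLA-4 is called single antibody A, the one with a title naming anti-mouse FcγRII single antibody B, and which of them received ipilimumab is not settled here. The article gives other tumor numbers, doses, days and tumor sizes than these records. Each group is 1 library of tumors pooled from 11 mice, so there is no replicate, no test between groups was made, and the treatment and the library cannot be told apart. Values of the 4 libraries are given in the order isotype control, single antibody A, single antibody B and combination.

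Tumor macrophages arise largely from blood monocytes and change their transcripts with the oxygen, cytokines, dead cells and matrix around them. Arg1 encodes arginase 1, which splits arginine into ornithine and urea and so competes for arginine with the inducible nitric oxide synthase encoded by Nos2. Spp1 encodes osteopontin, a secreted matrix protein that binds integrins and CD44, and macrophages rich in Spp1 have been described in many solid tumors together with hypoxia, matrix and lipid genes.

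The libraries held between 129151823 and 196362818 UMIs, and the members together 31459215. Members held a median of 15418, 18346, 20403 and 22271 UMIs per cell, and the other macrophages 17619, 21707, 21026 and 24531. Members were thus the shallower cells in every library. No complete barcode occurred in more than 1 library, while 33.6% of members and 33.4% of the other macrophages shared the 16-base droplet part of their barcode with a cell of another library, the samples having been pooled for loading. Doublet scores among the top 5% of a library were found in 1.41%, 1.26%, 1.77% and 3.41% of members and 5.08%, 3.37%, 4.01% and 4.43% of the others. Intervals below are 95% intervals and cover counting error only.

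Members made up 7.40% of macrophages in isotype control (283 of 3825 cells, exact binomial interval 6.59% to 8.27%). They made up 7.57% with single antibody A (238 of 3146, 6.67% to 8.55%) and 9.91% with single antibody B (395 of 3985, 9.0% to 10.9%). In the combination they made up 15.6% (498 of 3183, 14.4% to 17.0%). The combination held the highest share, and A and isotype control lay within each other's intervals. As a ratio to isotype control, the share was 2.11 (1.84 to 2.43) in the combination, 1.02 (0.866 to 1.21) with A and 1.34 (1.16 to 1.55) with B, with log intervals. The combination also exceeded both single antibodies, 2.07 (1.79 to 2.39) over A and 1.58 (1.39 to 1.79) over B. When every macrophage was drawn down at random to 8807 UMIs, with 540, 282, 354 and 237 shallower cells left out, the shares were 7.14%, 7.37%, 9.83% and 16%. Of all cells kept, rather than of macrophages, members were 3.47%, 3.74%, 6.49% and 6.55%, and macrophages were 46.9%, 49.4%, 65.5% and 41.9% of the cells kept. Cells with Csf1r counts that the rule left out for their T or NK cell counts were unequal in number, at 1762, 751, 737 and 1637 cells with median depths of 29033 to 36533 UMIs, and 37, 16, 19 and 122 of them were over the limit for members. With those added, the share of all cells kept was 3.93%, 3.99%, 6.81% and 8.16%. B and the combination stood side by side without those cells, and the combination stood higher with them. The exact binomial intervals with them were 6.19% to 7.47% and 7.55% to 8.8%, which cover counting error within 1 library each and do not compare treatments.

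The limit fell within a continuous tail. The last cell inside had 0.85816% of its UMIs on both genes and the closest cell outside 0.85786%, the median over all macrophages was 0.177%, the median over members 1.18% and the highest value 5.74%. There was no gap at the limit.

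Which of the pair raised a cell over the limit differed between libraries. Arg1 (ENSMUSG00000019987; GRCm38 chromosome 10, 24915221 to 24927484, minus strand) stood in members at 7152, 7918, 6116 and 10034 UMIs per 1000000 UMIs of the same cells (CPM), and in the other macrophages at 1383, 1430.1, 1442 and 2509.8 CPM. Spp1 (ENSMUSG00000029304; GRCm38 chromosome 5, 104435118 to 104441050, plus strand) stood in members at 6289, 5127, 7982 and 2921 CPM, and in the other macrophages at 622, 480.3, 891 and 439 CPM. Members of the combination thus had the highest Arg1 and the lowest Spp1 of the 4 libraries, and members of B the lowest Arg1 and the highest Spp1. Members held 25.8%, 29.5%, 30.6% and 40.5% of the Arg1 UMIs of macrophages and 40.4%, 44.7%, 48.2% and 53.1% of the Spp1 UMIs. In T cells without Csf1r or C1q counts, Arg1 was at 50.6, 16.9, 11.4 and 107 CPM and Spp1 at 35.4, 70.5, 55.2 and 189 CPM, at median depths of 3781 to 4562 UMIs. Whether these counts were free RNA or transcripts of the T cells themselves was not tested. The T cell level was highest in the combination for both genes, and was below the level in members and in the other macrophages of every library.

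Members with more Arg1 than Spp1 UMIs, called Arg1-led here, numbered 172 of 283 in isotype control (60.8%, 54.8% to 66.5%). They numbered 162 of 238 with A (68.1%, 61.7% to 73.9%) and 182 of 395 with B (46.1%, 41.1% to 51.1%). In the combination they numbered 433 of 498 (86.9%, 83.7% to 89.8%). The members of B were nearly balanced between both genes while those of the combination were mostly Arg1-led, with 949 Arg1-led and 465 Spp1-led members in all. The split compares UMIs of different probes and not amounts of RNA, and it was made after the values had been seen. Over 95% of the UMIs of the pair were on Arg1 in 48, 55, 45 and 252 members. No Spp1 UMI was found in 16, 28, 14 and 134 members and no Arg1 UMI in 4, 1, 4 and 0. At least 5 UMIs of each gene were present in 82.3%, 78.6%, 88.9% and 61.0% of members, so that most members carried both transcripts, least often in the combination.

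The higher share in the combination was found with Arg1 and not with Spp1. With the same 10% limit set on Arg1 alone, 6.59%, 7.31%, 7.03% and 20.5% of macrophages were over it, and the combination over isotype control gave 3.11 (2.71 to 3.57). With the limit set on Spp1 alone, 9.25%, 7.50%, 15.4% and 6.63% were over it, and the same comparison gave 0.716 (0.608 to 0.844), with 1.66 (1.47 to 1.88) for B. The direction of the difference between the combination and isotype control therefore turned with the gene.

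**Figure D1:**
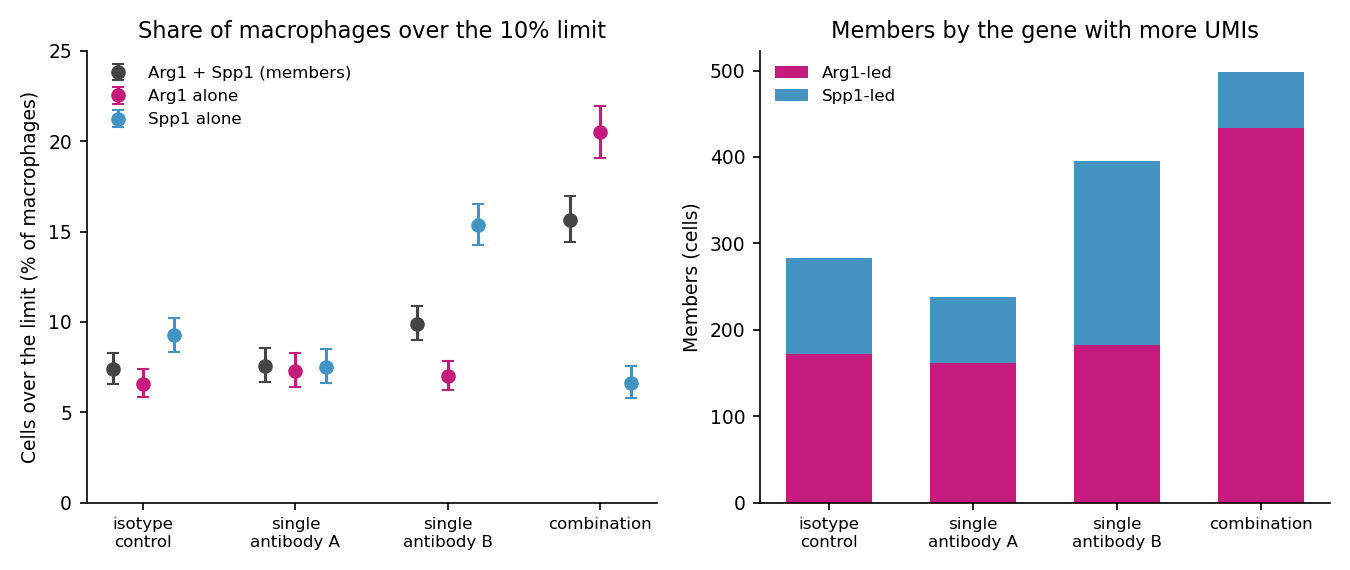
Left, macrophages over the 10% limit (% of macrophages of the library) for Arg1 and Spp1 summed, Arg1 alone and Spp1 alone, with exact 95% binomial intervals for counting error, for the 4 libraries. Right, members (cells) in each library, stacked by the gene with more UMIs. The combination is highest by Arg1 (20.5%) and lowest by Spp1 (6.63%), and B is highest by Spp1 (15.4%).

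**Figure D2:**
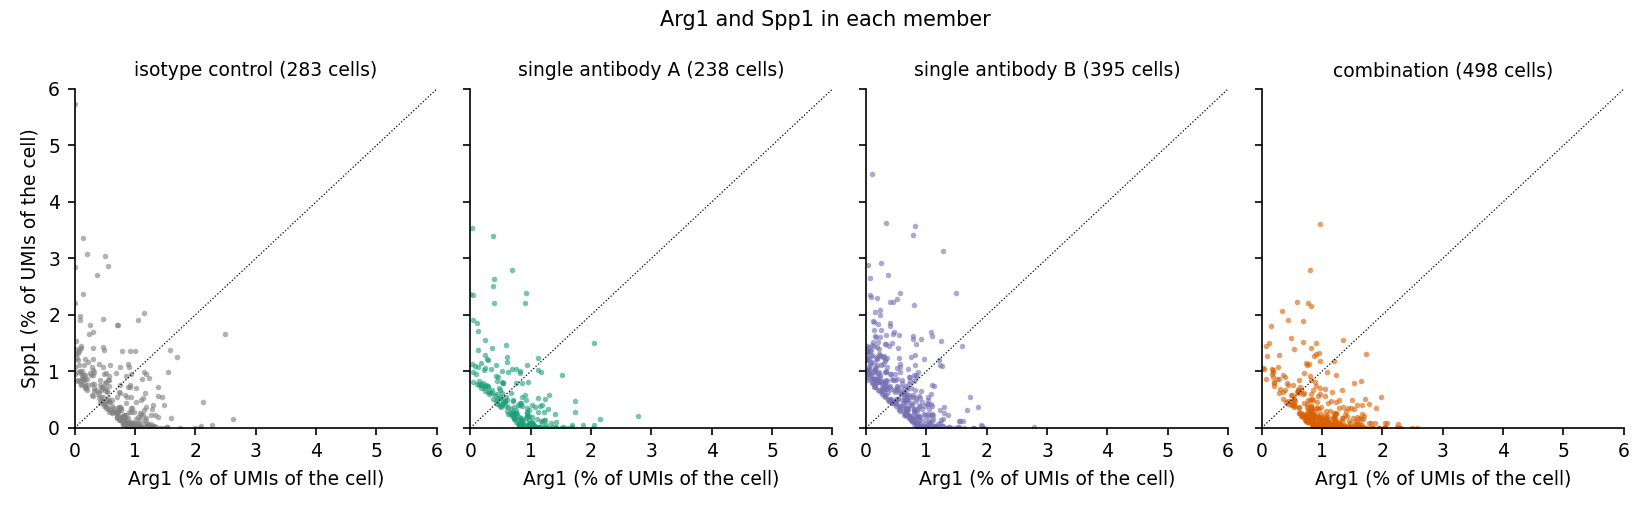
Each point is 1 member, with Arg1 (x axis) and Spp1 (y axis) as % of the UMIs of the cell, in a panel for each library, and the dotted line marks equal UMIs. The empty corner at the lower left is the selection limit, and 433 of the 498 points of the combination lie on the Arg1 side of the line.

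Fn1 and Thbs1, the other marker genes given for these cells, had no part in the rule. They were chosen with earlier results of these data known, so their levels describe the members and do not check the label. Fn1, which encodes the matrix protein fibronectin, was at 9286, 6742, 9059.5 and 5621 CPM in members and at 3758, 2253, 4369.6 and 1989 CPM in the others, a ratio of 2.47, 2.99, 2.07 and 2.83. Thbs1, which encodes thrombospondin 1, was at 1242, 1265, 798 and 1193 CPM in members and at 324, 268, 188 and 400.4 CPM in the others, a ratio of 3.83, 4.72, 4.25 and 2.98. Both were higher in members of every library. All 12 macrophage markers of a list were measured, with a median ratio of members to others of 0.824. Of these, 7 were below 1 and 3 above 1 in all 4 libraries. The list includes Csf1r, C1qa, C1qb and C1qc, which the rule used to define members and others, so these genes do not check the label. Cd14, the co-receptor for lipopolysaccharide, had ratios of 2.06 to 2.32. Adgre1, which encodes F4/80, was lower in members of every library at 0.533 to 0.664, and the membrane protein gene Ms4a7 at 0.519 to 0.657. The sorted cells could hold other leukocytes. Summed B cell, dendritic cell and mast cell or basophil markers in members were at most 27.3, 35.1 and 0.801 CPM. Summed T cell and NK cell markers were at most 10.9 and 3.28 CPM, which is no check of the label, since the rule had removed cells by counts of these markers. The neutrophil gene Ly6g and the mast cell or basophil genes Ms4a2 and Mcpt8 had 0 UMIs in members of all 4 libraries. Summed neutrophil markers were at 239, 98.3, 95.3 and 281 CPM in members and at 188, 165, 155 and 370.2 CPM in the others. The 13 tumor and stromal markers summed to 36.1, 16.8, 17.5 and 6.61 CPM in members and to 18.8, 176, 50.1 and 13.5 CPM in the others. Neither sum was higher in members of every library.

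The whole transcriptome was then compared between members and the other macrophages of the same library, on UMIs summed over the cells. A gene was called where it differed at least 1.5-fold in the same direction in all 4 libraries, among 7003 genes with at least 20 CPM in members or others of each library. There were 159 genes higher in members, 2.27% of those tested, and 235 lower, 3.36%. The median ratio over all genes tested was 0.915. With median-of-ratios scaling, which moved all genes by up to 0.131 on the log2 scale within a library and class, the counts were 243 higher and 154 lower, and all of the 159 were among the 243. Genes below are given by their role, with the list counts beside the values.

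Matrix and proteolysis genes stood highest in members of the gene lists, with 8 of 14 genes tested called higher, 0 lower and a median ratio of 2.02. Mmp12, the macrophage elastase, was at 2118, 2788, 2102 and 4349 CPM in members and at 442, 524, 325 and 729 CPM in the others. Mmp13, an interstitial collagenase, was at 231, 246, 156 and 451 CPM in members and at 62.8, 113, 52.4 and 101 CPM in the others. The 2 proteases were higher in members of every library. The cathepsin gene Ctsl had ratios of 2.64 to 2.79 and the metalloproteinase genes Adam8 and Mmp19 of 1.87 to 2.5 and 1.74 to 2.22. The urokinase receptor gene Plaur had ratios of 1.85 to 2.32 and the protease inhibitor gene Timp1 of 2.46 to 3.11. In the combination 30.8% of the Timp1 UMIs in members came from 1 cell. Mmp14, the membrane-bound protease, had ratios of 0.918 to 0.992 and was the lowest gene of the list.

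Genes of clotting and of chemokines were among the 10 highest of the transcriptome. F7, which encodes coagulation factor VII, was at 59.7, 64.5, 56.3 and 88.9 CPM in members and at 8.43, 9.95, 6.06 and 18.1 CPM in the others. F10, which encodes factor X, was at 364, 288, 219 and 446 CPM in members and at 66.5, 60.5, 33.7 and 129.7 CPM in the others. Both factors were several-fold higher in members of each library, and F13a1, the gene for the A chain of factor XIII, had ratios of 2.28 to 3.00. F10 and F13a1 were the 2 monocyte genes called higher of 5 tested, whose median ratio was 1.27. Ccl24, an eosinophil-attracting chemokine gene, had ratios of 5.33 to 12.5, but 38.9%, 26.2%, 83.9% and 26.8% of its UMIs in members came from 1 cell. The neutrophil-attracting chemokine genes Cxcl3 and Cxcl2 had ratios of 3.88 to 12.8 and 2.14 to 4.15, with 42.0% of the Cxcl3 UMIs in members of B from 1 cell. Il1a, an interleukin 1 gene, had ratios of 2.09 to 3.09. These 3 were the inflammatory cytokine genes called higher of 13 tested, with a median ratio of 1.21. Ccl6, Flrt2, Tnfrsf9, Stac2, Egln3 and Mmp12 completed the 10 highest, each at least 3-fold higher in every library.

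Glycolysis and hypoxia genes were higher as a group. All 24 genes tested had a ratio over 1 in each of the 4 libraries, 9 were called higher and 0 lower, and the median ratio was 1.55, while 1158 of all 7003 genes were over 1 in each library. Egln3, a prolyl hydroxylase gene that hypoxia-inducible factor induces, was at 494, 389, 370.1 and 379 CPM in members and at 121, 110.0, 119 and 109.7 CPM in the others. Vegfa, the gene for the vascular growth factor, was at 624, 699, 463 and 499 CPM in members and at 184, 246, 167 and 271 CPM in the others. Slc2a1, which encodes the glucose transporter GLUT1, was at 985, 1028, 853 and 793 CPM in members and at 431, 478, 406 and 451 CPM in the others. Each of the 3 genes was higher in members of all libraries. Ndrg1 had ratios of 2.09 to 3.54, the oxidoreductase gene Ero1l of 2.15 to 2.63 and Ankrd37 of 1.81 to 2.35. The mitophagy gene Bnip3 had ratios of 1.77 to 2.28, the prolyl hydroxylase gene Egln1 of 1.51 to 1.86 and the glycolytic kinase gene Pgk1 of 1.51 to 1.82. P4ha1, a collagen prolyl hydroxylase gene, was the lowest of the list at 1.15 to 1.30.

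Because these genes were higher together, the 250 bases upstream of their start sites in the RefSeq table for GRCm38.p6 were searched on both strands for ACGTG, the core letters of the hypoxia response element. Of the 9 genes called, Ndrg1 and Ero1l had no entry, and all of the other 7 had a match in at least 1 window. They had 8 windows, and the one without a match was that of the first start of Vegfa (chr17:46032378-46032627, minus strand). The only Vegfa match was in the window of a start further along the gene (chr17:46025164-46025413). Among the 23 genes of the list that were tested and had an entry, 16 had a match (69.6%), against 27.4% of 5673 genes tested and 18.5% of 27025 genes in the table. The list was put together from genes known for glycolysis and hypoxia, so its share describes the list and not the members. Of the 121 genes called higher in members that had an entry, the 7 included, 49 had a match (40.5%). A match is a description of letters and not a binding site. The windows of 4 genes are shown because they carry the letters at different distances from the start, in lower case 5′ to 3′ on the strand of the gene, with the matches in capitals (CACGT where the match is on the other strand).
Egln3, chr12:54203875-54204124, minus strand: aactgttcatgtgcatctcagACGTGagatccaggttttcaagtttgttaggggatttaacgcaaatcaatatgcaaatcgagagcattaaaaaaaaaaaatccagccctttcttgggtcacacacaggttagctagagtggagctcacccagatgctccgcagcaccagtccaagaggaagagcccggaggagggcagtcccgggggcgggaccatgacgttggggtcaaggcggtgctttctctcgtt
Ankrd37, chr8:45999851-46000100, minus strand: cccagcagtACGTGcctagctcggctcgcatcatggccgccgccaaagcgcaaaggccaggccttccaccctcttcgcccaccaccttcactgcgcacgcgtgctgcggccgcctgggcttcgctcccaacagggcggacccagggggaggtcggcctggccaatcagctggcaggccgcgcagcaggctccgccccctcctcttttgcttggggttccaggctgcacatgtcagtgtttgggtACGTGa
Slc2a1, chr4:119108495-119108744, plus strand: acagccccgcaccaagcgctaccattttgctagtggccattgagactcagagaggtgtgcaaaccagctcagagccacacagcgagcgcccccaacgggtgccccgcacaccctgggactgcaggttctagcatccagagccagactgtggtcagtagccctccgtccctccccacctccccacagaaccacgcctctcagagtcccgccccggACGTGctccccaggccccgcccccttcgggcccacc
Pgk1, chrX:106186850-106187099, plus strand: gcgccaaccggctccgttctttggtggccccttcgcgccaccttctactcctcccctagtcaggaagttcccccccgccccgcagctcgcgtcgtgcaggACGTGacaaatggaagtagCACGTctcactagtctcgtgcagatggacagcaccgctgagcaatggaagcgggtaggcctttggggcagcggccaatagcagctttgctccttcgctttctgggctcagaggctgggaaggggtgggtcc
The match nearest to the start began 229 bases upstream for Egln3, 6 for Ankrd37, 36 for Slc2a1 and 131 for Pgk1.

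Oxidative stress genes had the same direction, with all 11 tested over 1 in each library, 4 called higher and a median ratio of 1.65. Hmox1, the heme oxygenase gene, was at 2964, 4168, 2708 and 3106 CPM in members and at 942, 1362, 1166 and 1336 CPM in the others. The cystine transporter gene Slc7a11 had ratios of 2.41 to 4.33, the metallothionein gene Mt1 of 1.60 to 2.40 and the ferritin gene Fth1 of 1.56 to 1.73. Txnrd1, a thioredoxin reductase gene, was the lowest at 1.12 to 1.24. Of 17 lipid and lysosome genes, 7 were called higher and 0 lower, with a median ratio of 1.44. Gpnmb, a glycoprotein gene of lipid-laden macrophages, was at 169, 195, 207 and 171 CPM in members and at 51.9, 67.1, 53.7 and 88.7 CPM in the others. The scavenger receptor gene Cd36 had ratios of 2.44 to 3.87, the tetraspanin gene Cd9 of 1.97 to 2.61 and the fatty acid binding protein gene Fabp5 of 1.80 to 2.87. The lipid droplet gene Plin2 had ratios of 1.78 to 2.28, the galectin gene Lgals3 of 1.59 to 2.06 and the cathepsin gene Ctsd of 1.52 to 1.63. Apoe, the apolipoprotein gene of the list, was its lowest at 0.691 to 0.962, so the list did not move as a block.

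Among genes of arginine, nitric oxide and polyamines, Nos2 and Slc7a2 were called higher and Gatm lower, of 11 tested with a median ratio of 1.07. Nos2 (ENSMUSG00000020826; GRCm38 chromosome 11, 78920787 to 78960254, plus strand) was at 350.2, 623, 185 and 1925 CPM in members and at 76.8, 184, 48.6 and 683 CPM in the others, a ratio of 4.56, 3.38, 3.8 and 2.82. Slc7a2, which encodes a transporter of arginine, was at 459, 480.0, 409 and 781 CPM in members and at 135, 137, 103 and 264 CPM in the others. Gatm, whose enzyme uses arginine to make the creatine precursor, was at 727, 712, 532 and 608 CPM in members and at 1097, 1169, 1017 and 1042 CPM in the others. The cells highest in Arg1 and Spp1 were thus also higher in Nos2 than the other macrophages of their library. Drawn down to 8807 UMIs, 20.9%, 30.2%, 14.3% and 59.8% of members had at least 3 Nos2 UMIs, against 6.09%, 11.3%, 4.36% and 36.2% of the other macrophages. Without drawing down the shares were 29.0%, 39.1%, 21.5% and 67.9% and 10.3%, 17.4%, 7.83% and 46.7%. Members had the larger share in each library by both counts. Of the 10, 48, 12 and 13 T cells deep enough, 0 reached 3 UMIs, which allows shares of up to 30.8%, 7.40%, 26.5% and 24.7% by the exact binomial interval, and over all T cells Nos2 was at most 13.7 CPM.

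Of 9 alternative activation and repair genes tested, 4 were called higher, with a median ratio of 1.45. Chil3, a chitinase-like gene, was at 225, 703, 203 and 995 CPM in members and at 119.9, 71.4, 55.3 and 171 CPM in the others, with 35.1% of its UMIs in members of A from 1 cell. Il1rn, which encodes the interleukin 1 receptor antagonist, had ratios of 2.22 to 3.18, the growth factor gene Igf1 of 1.95 to 2.21 and the transcription factor gene Egr2 of 1.57 to 3.13, while the growth factor gene Pdgfb was the lowest at 0.767 to 1.07. Resident-like macrophage genes had a median ratio of 0.986 over 9 genes, with Pf4, the platelet factor 4 gene, called higher at 1.84 to 2.65 and the chemokine gene Ccl8 lowest at 0.262 to 0.857. Immediate early and heat shock genes had a median ratio of 1.30 over 10 genes with none called, from Egr1 at 0.784 to 0.994 to Dusp1 at 1.27 to 1.80. Of 7 osteopontin receptor genes, the integrin chain gene Itga4 was called lower at 0.542 to 0.646 and Cd44 was highest at 1.22 to 1.54. The median ratio of these receptors was 0.938, which median-of-ratios scaling turned to 1.04, so the list has no settled direction.

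**Figure D3:**
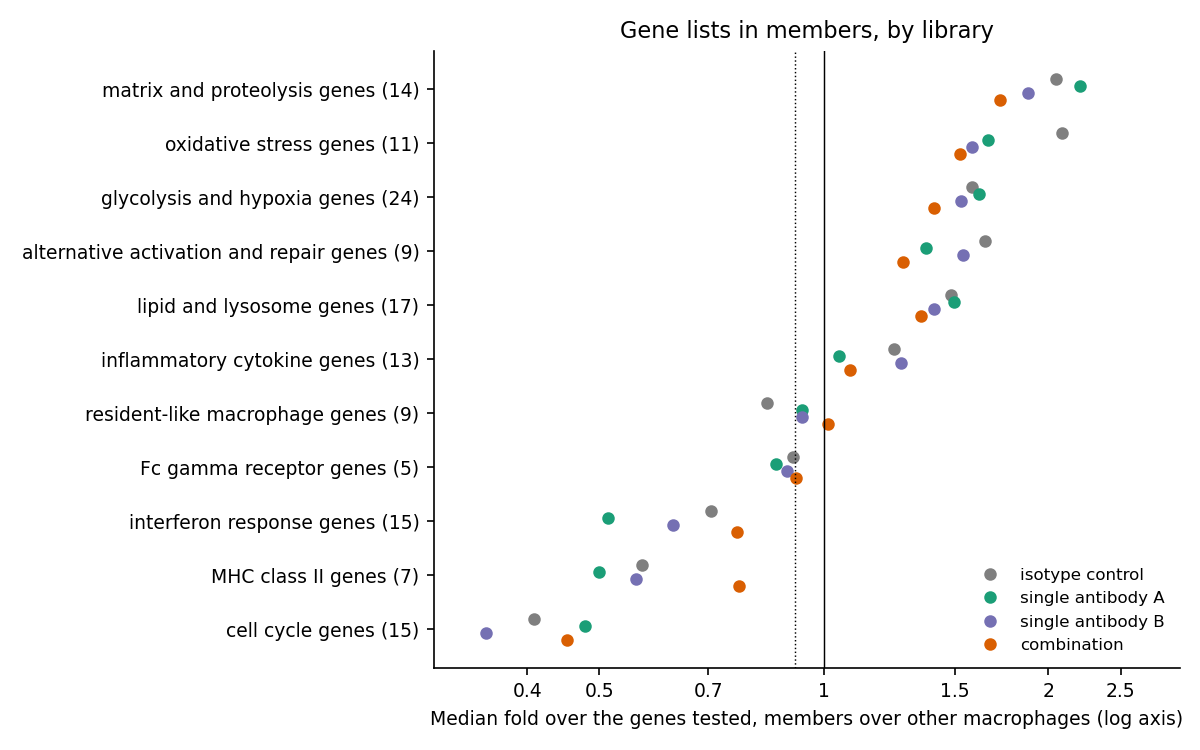
Median ratio of members to other macrophages over the genes tested of each list (number of genes in brackets, log axis), 1 point per library, with the solid line at 1 and the dotted line at the median of all genes, 0.915. Matrix, oxidative stress and glycolysis lists lie right of 1 in all 4 libraries, and interferon, MHC class II and cell cycle lists lie left of the dotted line in all 4.

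Cell cycle genes stood lowest in members of the gene lists, with 12 of 15 called lower, 0 higher, all 15 below 1 in each library and a median ratio of 0.422. With members chosen by Spp1 alone this median was 0.733, above the 0.431 of MHC class II genes and the 0.593 of interferon response genes. Of all 7003 genes, 3795 were below 1 in each library. Mki67, the proliferation marker gene, was at 88.5, 97.4, 85.5 and 91.0 CPM in members and at 265, 228, 278 and 191 CPM in the others. Top2a, the topoisomerase gene of dividing cells, was at 80.0, 96.4, 59.0 and 88.0 CPM in members and at 219, 215, 226 and 194 CPM in the others. Mki67 and Top2a were lower in members of every library, and Pcna, the least lowered of the list, had ratios of 0.675 to 0.770. Birc5, Ccna2, Ccnb2, Cdk1, Cenpf, Rrm2, Stmn1, Tyms, Ube2c and Mcm5 were the others called lower.

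MHC class II genes were below 1 in all 4 libraries for all 7 tested, with a median ratio of 0.565, although none passed 1.5-fold in each. H2-Eb1, a class II beta chain gene and the lowest, was at 2218, 2474, 1133 and 3849 CPM in members and at 4533, 5449, 2389.5 and 5573 CPM in the others. H2-DMa, whose product helps to load peptides, was the highest at 0.600 to 0.770. Of 15 interferon response genes, 3 were called lower and 0 higher, with a median ratio of 0.651. Cxcl9, the interferon-γ induced chemokine gene, was at 191, 445, 202 and 913 CPM in members and at 843, 1609.8, 745 and 2283 CPM in the others, a ratio of 0.226, 0.277, 0.271 and 0.40. Members thus had less Cxcl9 than the other macrophages of their own library in all 4. Cxcl10 and Gbp3 were the other genes called, at 0.426 to 0.620 and 0.370 to 0.648, and Rsad2 was the highest of the list at 1.00 to 1.91.

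Among the 10 genes lowest in members were Tmem176a and Tmem176b, a pair of adjacent membrane protein genes, with ratios of 0.113 to 0.215 and 0.106 to 0.197. In isotype control 36.1% of the Tmem176a UMIs in members came from 1 cell. Tmem176b was at 27.1, 27.2, 46.1 and 7.80 CPM in members and at 224, 178, 234 and 73.6 CPM in the others. Siglece, which encodes an inhibitory sialic acid receptor, had ratios of 0.153 to 0.206, and Cd300e, a receptor gene of monocytes, of 0.0610 to 0.209. The lowest Cd300e ratio, with A, rests on 10 UMIs in members (interval 0.0292 to 0.112), 30% of them from 1 cell. The potassium channel gene Kcnj10 had ratios of 0.120 to 0.210 and the adaptor gene Grap2 of 0.195 to 0.306. Ighm, the antibody heavy chain gene of B cells, had ratios of 0.0753 to 0.240, and in the combination 52.3% of its UMIs in members came from 1 cell. Kif18b, Pimreg and the histone gene Hist1h1a, genes of dividing cells, made up the rest.

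Of the Fcγ receptor genes, whose product FcγRII was a target of the treatment, 0 of 5 tested were called in either direction, with a median ratio of 0.879. Fcgr2b, the gene for the inhibitory receptor FcγRIIB, was at 1775, 1657, 1641 and 1535 CPM in members and at 1200.2, 1179, 1168 and 1030.0 CPM in the others, a ratio of 1.48, 1.41, 1.40 and 1.49. Fcgr4, the gene for an activating receptor, was at 421, 436, 302 and 700.4 CPM in members and at 567, 831, 482 and 788 CPM in the others, a ratio of 0.743, 0.525, 0.626 and 0.889. Fcgr2b lay above and Fcgr4 below the other macrophages in each library. The activating receptor genes Fcgr3 and Fcgr1 had ratios of 1.09 to 1.28 and 0.757 to 0.909, and the shared signalling chain gene Fcer1g of 0.861 to 0.918.

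All macrophages were also divided into 10 equal steps of Arg1 and Spp1 share, the uppermost step holding all members but 1. Summed glycolysis and hypoxia genes were at 4207, 4188, 4250.1 and 5509.9 CPM in the lowest step, at 10786, 11798, 10929 and 10540.1 CPM in step 9 and at 12944, 13537, 12167 and 11860.4 CPM in the uppermost. Each step was above the one before it in isotype control, A and B, and from step 3 on in the combination, so for these genes the difference between members and others was part of a slope that also ran through macrophages below the limit. Summed MHC class II genes were at 34976, 49827, 27499 and 49189 CPM in the lowest step, at 18656, 16314, 10969.5 and 29481 CPM in step 8, at 21679.6, 20591, 9712 and 30093 CPM in step 9 and at 14501, 15471, 8009 and 25359.9 CPM in the uppermost. The uppermost step was the lowest of the 10 in every library, but the steps below it were not in order, and step 9 lay above step 8 in all libraries but B. Nos2 was at 18.9, 25.8, 33.5 and 369 CPM in the lowest step, at 216, 740.3, 113 and 1252 CPM in step 9 and at 350.2, 623, 185 and 1925 CPM in the uppermost, and was highest in step 9 with A. Summed cell cycle genes were highest in step 2 with B and in step 3 in the other libraries, and were at 890.2, 950.2, 768 and 810.3 CPM in the uppermost. Summed Fcγ receptor genes were at 7092, 8131, 7211 and 7093 CPM in the lowest step and at 7294, 7353, 6843 and 7463 CPM in the uppermost, with no common direction.

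**Figure D4:**
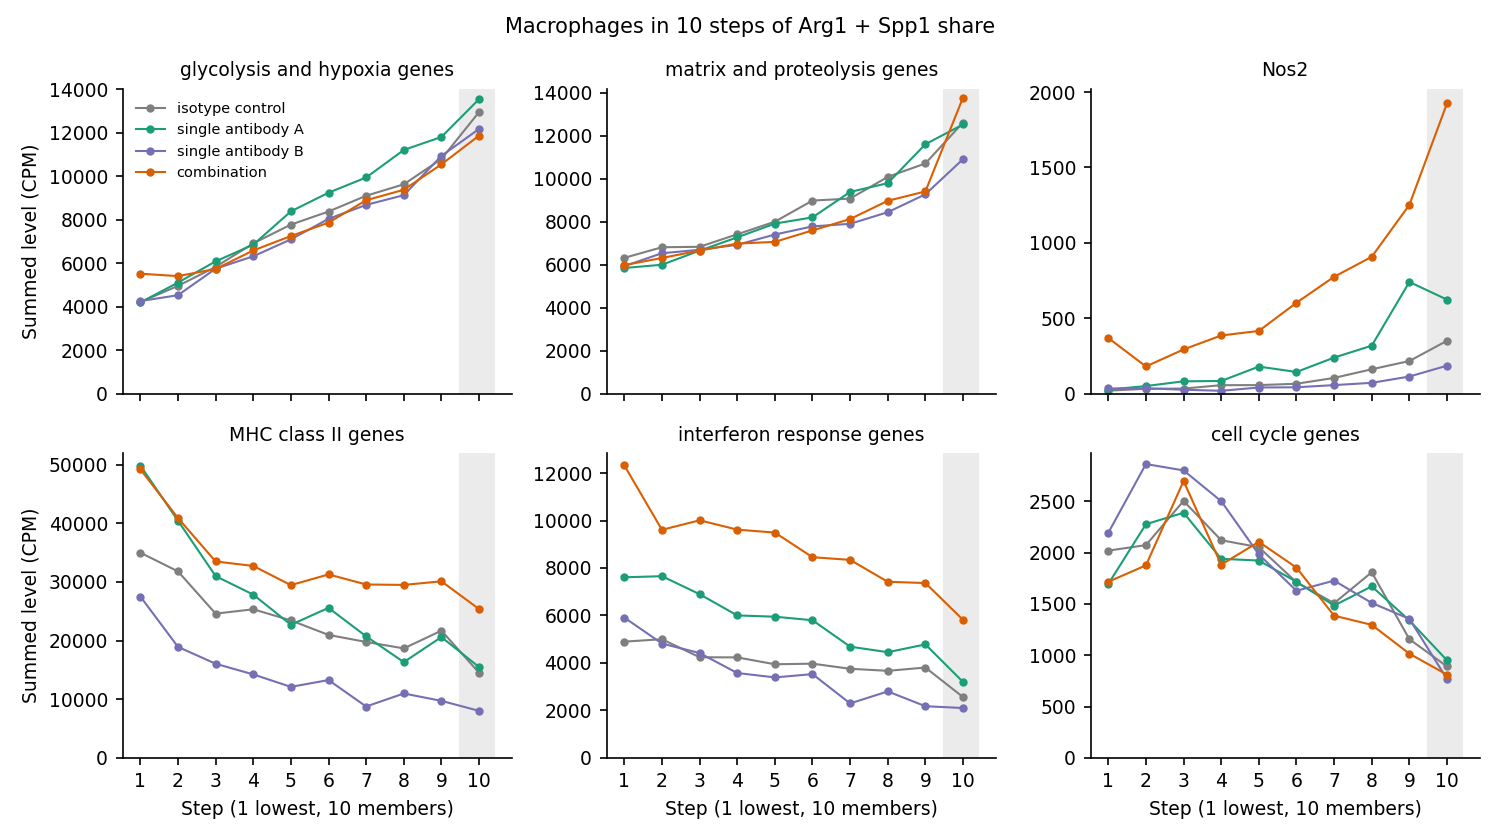
Macrophages in 10 equal steps of the share of UMIs on Arg1 and Spp1 (x axis, 1 lowest, 10 shaded and holding the members), with the summed level of each list or of Nos2 (CPM, y axis from 0), 1 line per library. Glycolysis and Nos2 levels are higher in step 10 than in step 1 in every library, and MHC class II and interferon levels are lower.

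Arg1-led and Spp1-led members were then compared within each library. Of 6637 genes tested, 31 were at least 1.5-fold higher in Arg1-led members in all 4 libraries, 0.467%, and 11 in Spp1-led members, 0.166%. The counts were 21 and 20 when members were the top 5%, 26 and 17 without the highest doublet scores, 23 and 22 by Spp1 alone and 20 and 9 with no limit on T or NK cell counts, so how far the counts lay apart depended on the choice of cells. Fn1, Thbs1, Mmp12 and Egln3 were in neither set. Mgl2, a lectin gene, was at 90, 189, 27.2 and 53.9 CPM in Arg1-led members and at 12.2, 20.1, 4.27 and 15.8 CPM in Spp1-led members, with up to 29.0% of its UMIs in members of a library from 1 cell. Nos2 was at 473, 822, 232 and 2153 CPM in Arg1-led members and at 168, 198, 148 and 476 CPM in Spp1-led members. Pdcd1lg2, the gene for PD-L2, was at 60.5, 81.9, 23.1 and 158 CPM in Arg1-led members and at 14.3, 13, 14.6 and 46.2 CPM in Spp1-led members. Mgl2, Nos2 and Pdcd1lg2 were thus higher in Arg1-led members of every library. MHC class II genes were on the same side, with 4 of 7 called higher in Arg1-led members, and H2-Eb1 was at 2917, 2936, 1519 and 4155 CPM in Arg1-led members and at 1181, 1488, 834 and 1903 CPM in Spp1-led members. The complement genes C3 and Cfb and the chemokine gene Ccl5 were called on this side too. Drawn down to 8807 UMIs, 27.8%, 37.6%, 18.5% and 64.6% of Arg1-led members had at least 3 Nos2 UMIs, against 10.2%, 12.7%, 10.8% and 27.2% of Spp1-led ones.

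Lpl, the lipoprotein lipase gene, was on the other side, at 55.0, 35.5, 65.5 and 65.4 CPM in Arg1-led members and at 126, 274, 168 and 227 CPM in Spp1-led members. Ccl3, a chemokine gene, was at 49.1, 81.4, 62.9 and 97.1 CPM in Arg1-led members and at 268, 127, 149 and 247 CPM in Spp1-led members. Fcrls, an Fc receptor-like gene, was at 249, 358, 553 and 96.5 CPM in Arg1-led members and at 952, 776, 1048 and 259.9 CPM in Spp1-led members. All 3 were higher in Spp1-led members of every library. Angptl2, Ccl4, Stap1, Cdk18, Gpr183, Cd83, Htr2b and Itga6 were the others called. Gpnmb was at 109, 136, 162 and 114 CPM in Arg1-led members and at 259.5, 321, 242 and 529 CPM in Spp1-led members, short of the call in B.

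Within members, the combination was compared with isotype control over genes with at least 50 CPM in members of any library. Of 4561 genes tested, 91 were at least 2-fold higher in members of the combination, 2.00%, and 57 at least 2-fold lower, 1.25%. A gene could pass this minimum through the library in which it was high. Cd1d1, at 12.9, 17.6, 9.15 and 75.2 CPM in members, passed only through the combination. The counts and the genes ranked by this ratio therefore depend in part on the filter. The median ratio over all genes was 0.929 in members. Ccl5, a T cell attracting chemokine gene, was at 77.8, 475, 60.0 and 1383 CPM in members and at 308, 479, 202 and 1405 CPM in the others, which set the combination 17.8 (16.1 to 19.7) times as high as isotype control in members, with an exact conditional interval. Slpi, a protease inhibitor gene, was at 23.4, 64.8, 32.7 and 301 CPM in members and at 16.6, 12.7, 8.76 and 96.6 CPM in the others, a ratio of 12.8 (10.7 to 15.6) in members. From 1 cell came 28.1% of the Slpi UMIs in members of isotype control and 6.23% of those in the combination. Nos2, given above, had a ratio of 5.50 (5.23 to 5.78) in members and 8.89 in the other macrophages. Each of the 3 genes was highest in the combination among the other macrophages too. Ccl8, Serpina3g, Ly6i, Acod1, Procr, Cd1d1 and Cd38 were the rest of the 10 genes with the largest ratio among those at least 2-fold above each other library, from 5.30 for Cd38 to 10.1 for Ccl8.

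The combination held more Arg1-led members than isotype control did, so these ratios were also taken within each kind of member. Within Arg1-led members this ratio was 4.55 for Nos2, 12.9 for Ccl5, 10.1 for Slpi and 6.20 for Acod1. Within Spp1-led members it was 2.84, 29.6, 14.5 and 6.94 in the same order of genes. The ratios of Ccl5 and Slpi there rest on low levels in isotype control, 19.4 and 10.2 CPM. In all members of isotype control, 21.6% of the Ccl5 UMIs and 28.1% of the Slpi UMIs came from 1 cell. The genes were taken from those already higher in members of the combination. All 4 genes were more than 2-fold higher in the combination within both kinds of member.

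By list, 7 of 15 interferon response genes were at least 2-fold higher in members of the combination, with a median ratio of 1.85 in members and 1.59 in the other macrophages. Cxcl9 had a ratio of 4.78 (4.47 to 5.12) in members. The guanylate-binding protein gene Gbp2 was at 332, 364, 217 and 1018 CPM in members. Irf1, Gbp3, Gbp5 and Iigp1 were also called, whereas Ifit1, Ifit2 and Ifit3, also interferon-induced, had ratios of 0.914, 0.806 and 0.636. MHC class II genes had a median ratio of 1.72 with 0 of 7 called. Of 10 alternative activation genes 5 were called, Chil3, Il1rn, Cd274, Pdcd1lg2 and Retnla, with a median ratio of 1.88. Cd274, the gene for PD-L1, was at 203, 265, 140.4 and 551 CPM in members. Retnla, a resistin-like gene, was at 2.26, 190.0, 102 and 183 CPM, but 95.4% of its UMIs with B came from 1 cell. Glycolysis and hypoxia genes, high in members of every library, had a median ratio of 0.896 between the combination and isotype control, with 0 of 25 called higher and Adm, the adrenomedullin gene, called lower. Of the arginine genes, Nos2 and Ass1, which encodes argininosuccinate synthase, were called higher.

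Of 10 immediate early and heat shock genes, 2 were called lower in members of the combination. Hspa1a, an inducible chaperone gene, was at 785, 506, 678 and 113 CPM in members and at 496, 406, 418 and 90.2 CPM in the others, which set members of the combination at 0.144 (0.136 to 0.153) times the control level, and Hspa1b, its close copy with which it may share reads, had a ratio of 0.163. Fcrls was at 532, 491, 832 and 119 CPM in members and at 1099.7, 863, 1303 and 309.8 CPM in the others, a ratio of 0.223 (0.209 to 0.238) in members. Both Hspa1a and Fcrls were lowest in the combination in members and in the others. Hspb1, Gpr183, Angptl2, Cd244a, Cd83, Gas6 and Ank were the rest of the 10 lowest among genes at least 2-fold below each other library, with ratios of 0.231 to 0.343. For Hspb1, 47.4% of the UMIs in members of the combination came from 1 cell. Fn1 had a ratio of 0.605 (0.598 to 0.613) in members, which was 0.516 within Arg1-led and 1.02 within Spp1-led members. F13a1 was called lower with a ratio of 0.456.

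**Figure D5:**
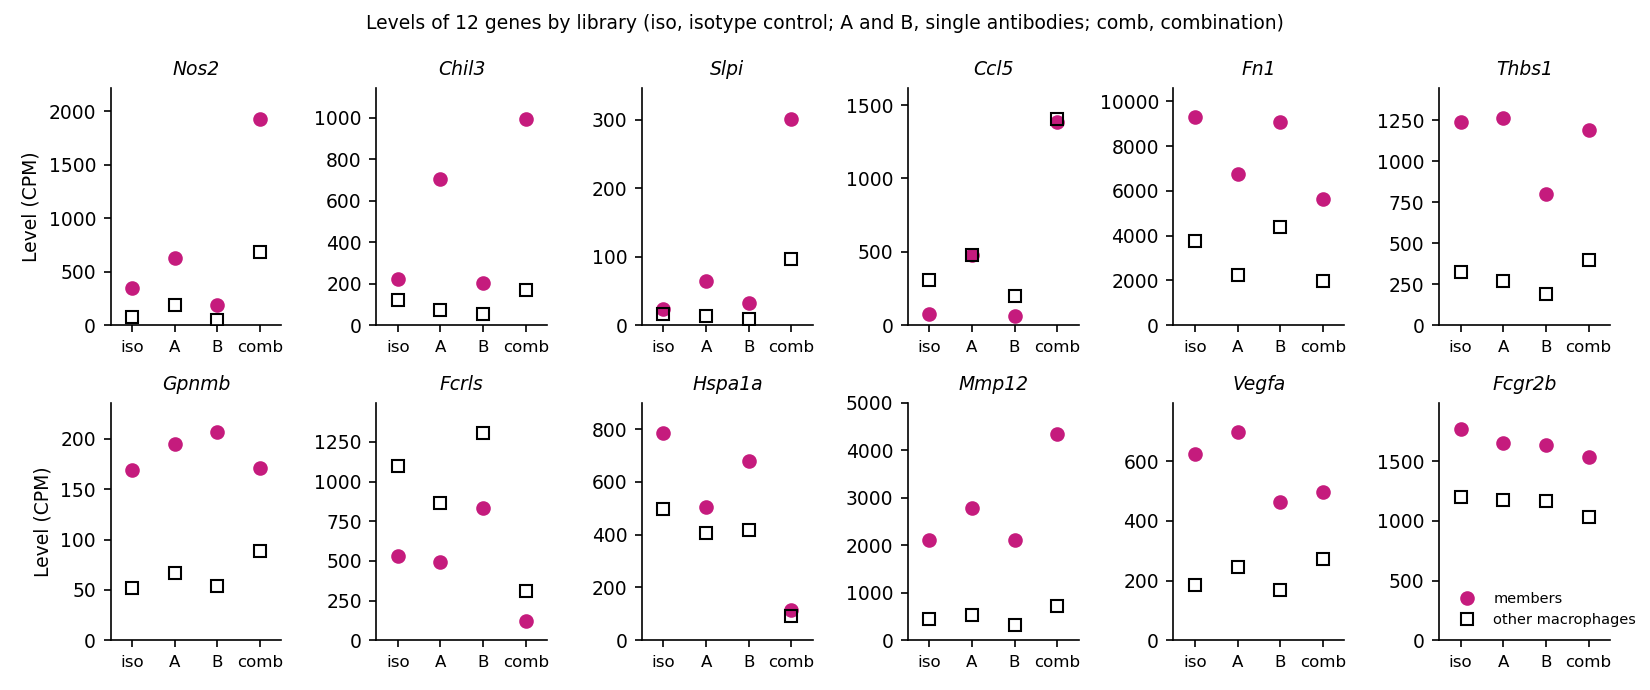
Levels (CPM, y axis from 0) of 12 genes by library (x axis) in members (filled circles) and the other macrophages (open squares), each point being UMIs summed over the cells of 1 library. Nos2, Slpi and Chil3 are highest in the combination in both kinds of cell, Fcrls and Hspa1a are lowest there in both, and Fn1, Thbs1, Gpnmb, Mmp12, Vegfa and Fcgr2b are higher in members than in other macrophages of every library.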

How the data were processed

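Single-cell RNA was measured in 4 libraries, 1 per group. Per the file headers and the labels, the authors made the deposited counts (UMIs per gene and cell, not normalized) with Cell Ranger, version 7.2.0 in the headers and 7.0.0 in the submitters' notes, against mm10, before removal of doublets and low-quality cells. Here 67 cells under 500 genes and 48 cells over 10% mitochondrial counts were left out (28194 kept), and UMIs were summed over members and over other macrophages of each library and divided by their total (CPM). Probes of Chromium Flex read short stretches of each transcript, so levels of different genes are not compared. With 1 library per group, no test was run. Binomial intervals are Clopper-Pearson, ratios of counts have exact conditional intervals, and cells were drawn down 20 times. The 10% limit, the members and the gene lists were chosen with earlier results of these data known. Named genes are Arg1, Spp1, Fn1 and Thbs1, the highest, lowest and called genes of each list, the 10 highest and 10 lowest for members and for the combination, Fcγ receptor genes and Nos2. Other genes named, such as those of the split by leading gene, were chosen after their values were seen, and a few genes that the rule names are not reported here. On simulated counts with 200 genes changed 4-fold, 100% were recovered with 0 false calls, over 7136 genes for members against others and 4584 for the combination against isotype control. Those counts held counting error only, around 1 profile shared by all libraries. The genes changed were well above the minimum level, and the change was larger than the cut-offs. The simulation could thus hardly fail, and it gives no rate of false calls for these data. Doublets were kept, since the Scrublet calls of scanpy 1.11.5 did not work here, and leaving out the top 5% of scores was an alternative. Others were the limit, depth, cell filter, macrophage definition with and without its limit on T and NK cell counts, scaling and minimum level. Python 3.11.15, numpy 2.4.6, scipy 1.17.1 and pandas 2.3.3 were used.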

Additional observations from a re-analysis of the deposited data

Results flagged for a closer look

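For Vegfa, the vascular growth factor gene, the combination lay below isotype control in members and above it in the other macrophages. Its level in the combination divided by that in isotype control was 0.799 in members and 1.47 in the others. This difference was not tested, as each value is from 1 library.

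In 5 named genes, members lay above the other macrophages in at least 1 library and below them in at least 1 other, with counting intervals more than 1.1-fold away from 1 on both sides. Ratios that crossed 1 by less were not counted. The ratio of members to others in isotype control, A, B and the combination was 0.708, 1.00, 1.08 and 1.21 for Acod1, the itaconate synthesis gene. It was 0.931, 0.783, 1.02 and 1.43 for Cd38, an NAD-consuming enzyme gene, and 0.674, 1.58, 1.17 and 1.85 for Ly6i. All 3 were highest in the combination and at or below 1.02 in at least 1 other library. For Angptl2, an angiopoietin-like gene, it was 1.99, 1.68, 1.71 and 0.713, and for Plac8, a monocyte gene, 0.770, 1.02, 1.20 and 0.650. Acod1, Cd38 and Ly6i had been named for their high level in members of the combination, and Angptl2 for its low level there. Where the combination stood in the ratios of these genes was thus partly set by that choice. The differences in the 5 genes were not tested either.

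Outside the macrophage rule, cells with Csf1r and less than 0.2% of UMIs on C1q genes also held Arg1 and Spp1. In isotype control 157 of 1619 such cells were over the limit for members (9.70%, 8.30% to 11.2%, exact binomial). With A there were 153 of 1235 (12.4%, 10.6% to 14.4%) and with B 114 of 808 (14.1%, 11.8% to 16.7%). In the combination there were 363 of 1616 (22.5%, 20.4% to 24.6%), again the highest of the 4.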

How the results depend on the processing

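Of 457 values recomputed under alternatives, 383 kept their direction and stayed near the value reported, 71 moved and 3 turned. The Arg1-led share of members moved in 14 of 52 recomputed values, and list medians moved in 39 of 272. The ratio of the member share in the combination to isotype control was 1.89 to 2.25 under every alternative but the limits on a single gene, where it was 3.11 by Arg1 alone and 0.716, turned, by Spp1 alone. The ratio for B was 1.07 by Arg1 alone, 1.66 by Spp1 alone and 1.87 with all cells kept as denominator, and that for A 0.811 by Spp1 alone. By Spp1 alone, 71 genes were lower in members and 31 lower in members of the combination, and of the 159 genes higher and 235 lower in members 76 and 44 were called again, against 125 and 181 by Arg1 alone. Median-of-ratios scaling gave 243 genes higher and 154 lower in members. With no minimum level, 311 genes were higher and 536 lower in members, and 404 higher and 894 lower in members of the combination, and with a lower minimum 90 were lower in the combination. The median of osteopontin receptor genes, 0.938, turned to 1.03 by Spp1 alone and to 1.04 with median-of-ratios scaling. Leaving out the highest doublet scores kept all 159 genes higher in members, and leaving out cells in shared droplets, an alternative chosen after seeing the data, kept 140. With no limit on T or NK cell counts, also chosen after seeing the data, the ratio for the combination was 2.23, that for B 1.53, and 138 and 192 of the genes were called again. The 31 genes higher in Arg1-led members became 20 there, and the 11 higher in Spp1-led members became 20 at the top 5%, 17 without the highest doublet scores and 22 by Spp1 alone. No paired analysis was possible because each group is 1 library and no result comes from a test, and no replicate could be left out. The Spp1-led members of the combination number 65, of which 7 were too shallow for drawing down to 8807 UMIs, against 27 of 111 in isotype control.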
